A study of Petunia x hybrida with 32 samples.

Results

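Leaves of petunia plants that had spent 24 h in 150 mM NaCl were compared with leaves of plants that had spent 6 h in it. The comparison took the 6 salt-treated biological replicates out of 15 in the series, 3 at 24 h and 3 at 6 h, and replicates were chosen by treatment and hour alone. The other 9 replicates were control leaves at 24, 6 and 0 h, and those at 24 and 6 h gave the change over the same hours without salt. All plants were Petunia x hybrida 'Mitchell Diploid', a line used for laboratory work, grown hydroponically in nutrient solution in a growth chamber with a daily light period. Each replicate pooled leaves of 3 plants. As the methods read, the pools of both hours came from the same salt-treated plants, so the 2 salt groups are not separate sets of plants. Whether a replicate number marks the same 3 plants at both hours is not stated in the sources used here.

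Leaves change much of their RNA over a day. Chloroplasts fill with starch in the light and break it down to maltose and glucose in the dark, and clock proteins that peak at different hours set the daily order of many transcripts. Salt in the root medium lowers the water available to the plant and then loads leaves with sodium. Plants under salt are known to make compatible solutes such as proline and inositol derivatives, to close stomata through abscisic acid, and to slow growth. In the salt-treated leaves the hour of the day and the time in salt changed together and cannot be told apart, and the control leaves give the change over the same hours without salt.

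Expression was given as RPKM, reads per kilobase of transcript scaled by the mapped reads of the library, for transcripts of a de novo assembly. The table holds 4767 transcripts of 3450 components, where a component is a group of assembled isoforms that share sequence and a seq number names the isoform. Of these, 4658 reached 1 RPKM in 3 or more replicates and were tested. No read counts were used, so the depth behind a value is unknown and precision rests on 3 replicates per group. Summed RPKM ran between 152427 and 173539 per library in salt-treated leaves at 24 h and between 207336 and 303427 at 6 h. A chlorophyll a-b binding protein, which marks green leaf tissue, was at 1176 to 1263 RPKM at 24 h, against 2752 to 4402 RPKM at 6 h. Marker lists of other leaf cell types were short. Their summed levels were 534 to 742 RPKM at 24 h, against 161 to 203 RPKM at 6 h for epidermis (3 transcripts), 14.0 to 16.4 RPKM, against 5.49 to 7.10 RPKM, for guard cells (2 transcripts) and 3.11 to 7.72 RPKM, against 3.58 to 7.62 RPKM, for xylem and phloem (2 transcripts), and none of these lists stood at 0. The epidermis sum was carried by a lipid-transfer protein (comp15976_c0_seq2), with a mean of 629 RPKM at 24 h, against 168 RPKM at 6 h, while a GDSL esterase of that list (comp11731_c0_seq1) fell, with 3.49 RPKM at 24 h, against 12.5 RPKM at 6 h (log2 change -1.60). Their part in the results was not tested, and in pooled leaves fewer cells of a type cannot be told apart from less RNA per cell.

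Salt-treated leaves at 24 h and at 6 h differed in a large share of the tested transcripts, which are only a part of the assembly. The study's own test listed far fewer transcripts between these groups, and fewer than between its control groups at the same hours. In the fit used here, at an adjusted p of at most 0.001 and a change of at least 1 in log2(RPKM + 1), 1417 of 4658 transcripts (30.4%) were called, 634 higher (13.6%) and 783 lower (16.8%) at 24 h. They came from 1033 of 3415 tested components. The 3 replicates of each hour did not overlap in any of the 1417, while 69.4% of all tested transcripts were free of overlap. Where a called transcript is described below as free of overlap, this adds no support beyond the call. A change of 2 or more was found in 235 higher and 358 lower transcripts, and of 4 or more in 14 higher and 39 lower ones. Only 497 of the called transcripts (35.1%) had a name, against 32.7% of all tested ones, so most of the response in number of transcripts stands without a description. The change is measured with a pseudocount of 1 and understates the fold of transcripts that are low at either hour.

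In control leaves 1517 transcripts (32.6%) were called over the same hours, 597 higher (12.8%) and 920 lower (19.8%). That count depends on the fit, since the compared groups alone gave 749 control calls and 1382 salt calls. Scaling replicates to a common median added 0.25 to the median control change and 0.10 to the median salt change, and gave 833 higher and 713 lower control calls. Of the 1417 salt calls, 776 (54.8%) were called in the same direction in control leaves, 302 higher and 474 lower. They make up 51.2% of the control calls. Another 6 were called in opposite directions. The salt and control changes, which share no samples, had a Pearson correlation of 0.64 and a Spearman correlation of 0.61 across 4658 transcripts, which are not independent of each other. The difference between the 2 changes (salt minus control) passed an adjusted p of 0.05 in 1505 transcripts (32.3%), with 798 positive (17.1%) and 707 negative (15.2%), or 608 and 852 at a common median. Among the 1417 salt calls it passed in 520 (36.7%), close to the share in all transcripts. In 211 of these the salt rise was larger than the control change, and in 217 the salt decrease was deeper.

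**Figure D1:**
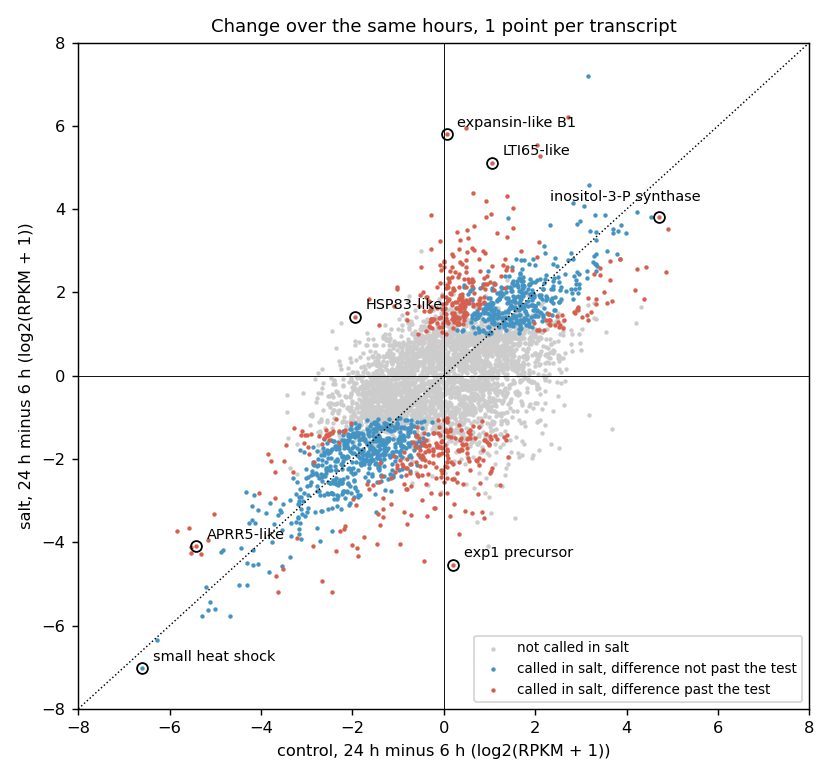
Each point is 1 of 4658 tested transcripts, with its change from 6 to 24 h in control leaves on the x axis and in salt-treated leaves on the y axis, both in log2(RPKM + 1). Called transcripts spread along and on both sides of the dotted line of equal change, and expansin-like B1 and the exp1 precursor lie near a control change of 0 with salt changes of 5.80 and -4.53.

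Among named transcripts the deepest decreases from 6 to 24 h were those of a small heat shock protein and a plastid transporter, and control leaves shared them. The small heat shock protein comp12659_c0_seq1, of a class that holds unfolding proteins in solution, had 0.220, 0.210 and 0.0900 RPKM at 24 h, against 150.3, 170.3 and 136 RPKM at 6 h. It was nearly silent in every 24 h replicate (log2 change -7.02, SE 0.21, adjusted p = 6e-12), and control leaves changed by -6.61. A plastidic ATP/ADP transporter (comp16973_c0_seq2), which brings ATP into the plastid, had 0.940, 1.36 and 1.98 RPKM at 24 h, against 123, 140.2 and 129 RPKM at 6 h (log2 change -5.78, SE 0.29, adjusted p = 9.84e-10; control change -5.30). The groups were far apart and the difference between salt and control did not pass the test for either transcript (adjusted p = 0.303 and 0.38). A chaperonin-like protein (comp12122_c0_seq1) had 2.17, 2.99 and 2.54 RPKM at 24 h, against 83.97, 88.3 and 70.6 RPKM at 6 h, a change of -4.52 against -4.07 in control leaves. The beta subunit of chloroplast chaperonin, which folds newly imported proteins (comp10819_c0_seq1), had 0.820, 1.66 and 1.19 RPKM at 24 h, against 25.2, 23.6 and 19.4 RPKM at 6 h, a change of -3.43 against -3.19. ATP synthase protein I (comp22135_c0_seq2) had 15.6, 19.4 and 20.1 RPKM at 24 h, against 268, 321 and 277 RPKM at 6 h, a change of -3.91 against -3.20, and here the difference passed the test narrowly (adjusted p = 0.0499). All of these were low at 24 h and high at 6 h under both treatments.

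Most starch transcripts fell. Of 13 transcripts of starch and maltose metabolism in 7 components, 2 were higher and 10 lower at 24 h in salt-treated leaves at an adjusted p of at most 0.05, with a median change of -1.50. Over all tested transcripts 60.3% passed that test, 28.3% higher and 32.1% lower, with a median change of -0.14. In control leaves 3 members were higher and 10 lower, where 61.6% of all transcripts passed, 27.4% higher and 34.2% lower. The list counts the plastidic ATP/ADP transporter described above (comp16973_c0_seq2) as a member, with its lowest salt change (-5.78). Glucan water dikinase (comp15987_c0_seq1), which phosphorylates starch granules so that they can be degraded, had 3.10, 2.86 and 3.67 RPKM at 24 h, against 85.4, 80.1 and 74.01 RPKM at 6 h (log2 change -4.26, SE 0.24, adjusted p = 3.51e-09). A maltose exporter of the chloroplast envelope (comp12977_c0_seq1) had 12.3, 11.8 and 11.1 RPKM at 24 h, against 76.3, 71 and 65.5 RPKM at 6 h (log2 change -2.50, SE 0.19, adjusted p = 5e-08). Neither overlapped between hours. The control change was -5.53 for the dikinase, deeper than under salt, with a difference of 1.27 (adjusted p = 0.0128), and -1.97 for the exporter, where the difference did not pass (adjusted p = 0.14). The 2 members that rose under salt are isoforms of an alpha-amylase component. The difference passed the test in 3 of the 13 members, all positive.

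Clock and light signalling transcripts mostly rose. The list holds 21 transcripts in only 8 components, of which 18 were higher and 3 lower at 24 h under salt (median change 2.35), and 16 higher and 2 lower in control leaves. Isoforms of 1 component share reads, so the count of transcripts overstates the number of genes. The ASG4-like factor (comp25149_c0_seq4), of the MYB-related family that holds morning clock proteins in Arabidopsis, had 20.4, 16.9 and 17.6 RPKM at 24 h, against 0.775, 0.795 and 0.655 RPKM at 6 h (log2 change 3.47, SE 0.21, adjusted p = 4.77e-09). Its 8 tested isoforms summed rose by 3.92. A salt tolerance-like B-box zinc finger protein (comp14982_c0_seq2), a light-signalling regulator in Arabidopsis, had 26.98, 26.2 and 32.5 RPKM at 24 h, against 3.04, 2.71 and 3.91 RPKM at 6 h (log2 change 2.81, SE 0.20, adjusted p = 2.89e-08). An APRR5-like pseudo-response regulator (comp15361_c0_seq2), a clock repressor of the afternoon in Arabidopsis, went the other way with 1.57, 1.33 and 0.855 RPKM at 24 h, against 40.5, 30.6 and 40.5 RPKM at 6 h (log2 change -4.09, SE 0.31, adjusted p = 4.74e-08). None of these overlapped between hours. In control leaves the changes were 3.80 for the ASG4-like factor, 3.86 for the B-box protein and -5.42 for the APRR5-like regulator. The last 2 changed less under salt than in control leaves, with differences of -1.05 (adjusted p = 0.0137) and 1.33 (adjusted p = 0.0311).

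Inositol, proline and sulfate transcripts were among the rises that control leaves shared. Inositol-3-phosphate synthase, which makes the first precursor of inositol, was present as 2 assembled components. The first (comp13205_c0_seq1) had 233, 231 and 189 RPKM at 24 h, against 14.6, 16.9 and 12.3 RPKM at 6 h (log2 change 3.81, SE 0.20, adjusted p = 1.61e-09), and the second (comp13205_c1_seq1) changed by 3.54. At 24 h both were above every 6 h replicate, and the control rises of 4.70 and 4.91 were larger (difference adjusted p = 0.0272 and 0.0173). A probable inositol transporter (comp10770_c0_seq1) had 84.9, 102 and 101.5 RPKM at 24 h, against 22.1, 18.8 and 19.4 RPKM at 6 h (log2 change 2.20, SE 0.23, adjusted p = 1.38e-06; control change 1.86). The whole list of inositol, raffinose and trehalose metabolism did not lean one way, with 6 of 18 higher and 8 lower. Delta-1-pyrroline-5-carboxylate synthase (comp11948_c0_seq1), the enzyme that commits glutamate to proline, had 448, 455 and 434 RPKM at 24 h, against 83.1, 76.2 and 94.8 RPKM at 6 h (log2 change 2.39, SE 0.21, adjusted p = 2.72e-07). It stood higher under salt than in control leaves at both hours (119 ± 15.3 RPKM at 24 h and 15.6 ± 2.04 RPKM at 6 h in control leaves, SD, n = 3 each), with a control change of 2.86 (difference adjusted p = 0.247). Of 4 proline transcripts 3 were higher and 0 lower at 24 h, and these included a proline oxidase (comp25205_c0_seq1), which breaks proline down, with 2.78, 3.65 and 2.69 RPKM at 24 h, against 0.305, 1.04 and 2.13 RPKM at 6 h. That rise of 0.99 did not pass with the HPLC-indexed libraries alone (adjusted p = 0.0831) or without replicate 1 at 6 h (0.67, adjusted p = 0.0549). A proline dehydrogenase (comp25205_c1_seq2) rose by 0.73 and also did not pass in these settings (adjusted p = 0.0514 and 0.0518). Both breakdown transcripts stood lower under salt than in control leaves. At 24 h their means were 3.04 and 1.76 RPKM, against 7.99 and 6.98 RPKM in control leaves. At 6 h they were 1.16 and 0.685 RPKM, against 3.11 and 2.85 RPKM. A sulfate transporter (comp26131_c1_seq2) had 182, 189 and 181 RPKM at 24 h, against 25.6, 20.2 and 30.5 RPKM at 6 h (log2 change 2.82, SE 0.42, adjusted p = 4.27e-05; control change 2.44).

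**Figure D2:**
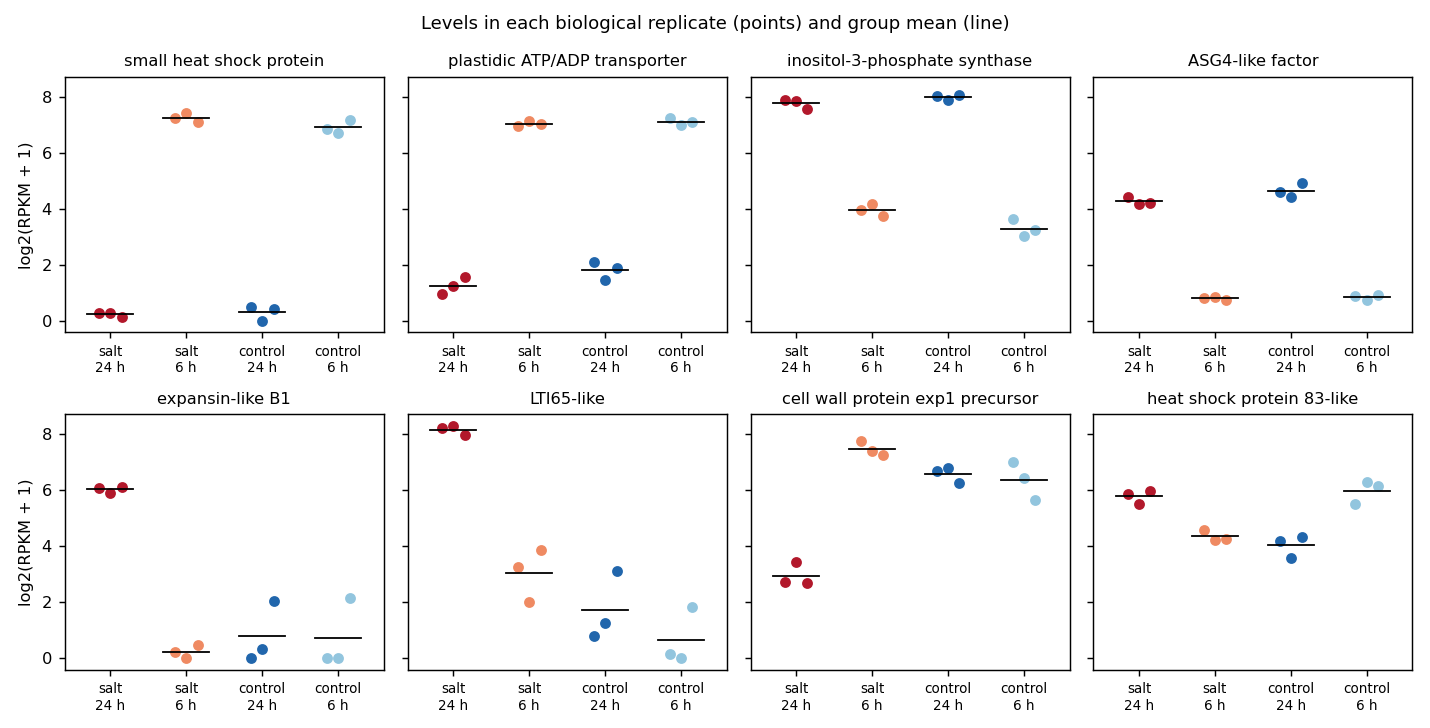
Levels of 8 transcripts in log2(RPKM + 1), with a point for each biological replicate and a line for the group mean. The upper row changed in the same direction under both treatments, for example the small heat shock protein by -7.02 in salt-treated and -6.61 in control leaves, and in the lower row the change differed, for example 1.42 and -1.94 for the HSP83-like transcript.

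A second group rose in salt-treated leaves far beyond the control change. Expansin-like B1 (comp40589_c0_seq1), of a family related to the wall-loosening expansins, had 66.5, 58.1 and 68.8 RPKM at 24 h, against 0.170, 0 and 0.375 RPKM at 6 h (log2 change 5.80, SE 0.80, adjusted p = 1.97e-05). It was close to absent at 6 h and present in every 24 h replicate, while control leaves had 0, 0.240 and 3.08 RPKM at 24 h and 0, 0 and 3.47 RPKM at 6 h. The difference from the control change was 5.74 (adjusted p = 0.00211), the highest among named transcripts. LTI65-like (comp31034_c0_seq1), named after a dehydration and cold responsive protein of Arabidopsis, had 298, 312 and 249 RPKM at 24 h, against 8.51, 3.01 and 13.5 RPKM at 6 h (log2 change 5.12, SE 0.80, adjusted p = 6.96e-05), a difference of 4.08 (adjusted p = 0.015). A transcript described as a major pollen allergen (comp15527_c0_seq1), a group related to beta-expansins, had 54.2, 64.4 and 49.6 RPKM at 24 h, against 1.52, 1.99 and 2.99 RPKM at 6 h (log2 change 4.19, SE 0.59, adjusted p = 2.51e-05), a difference of 3.26 (adjusted p = 0.01). Phosphoenolpyruvate carboxylase kinase (comp14467_c0_seq2), which phosphorylates and activates the carboxylase that feeds the citrate cycle, had 37.4, 42.8 and 31.2 RPKM at 24 h, against 0.715, 1.60 and 1.80 RPKM at 6 h (log2 change 4.03, SE 0.48, adjusted p = 4.96e-06), a difference of 2.52 (adjusted p = 0.013). In all 4 the lowest 24 h replicate was above the highest 6 h replicate, which was a condition of their choice.

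A pair of HSP70-class transcripts, a vacuolar transporter and 2 reductases also rose more under salt than in control leaves. A heat shock cognate HSC70 transcript (comp16641_c0_seq2) had 98.7, 85.5 and 107 RPKM at 24 h, against 0, 1.41 and 2.79 RPKM at 6 h (log2 change 5.55, SE 0.60, adjusted p = 1.8e-06), and both isoforms of its component summed rose by 3.91. An HSP70 transcript (comp20827_c0_seq1) had 7.84, 8.43 and 7.91 RPKM at 24 h, against 0, 0.365 and 0 RPKM at 6 h (log2 change 3.03, SE 0.19, adjusted p = 1e-08). The differences from control were 3.50 (adjusted p = 0.00724) and 2.37 (adjusted p = 0.000114). Another, abundant transcript described as a heat shock protein of this class (comp26529_c0_seq1) did not share this, with a mean of 2614 RPKM at 24 h, against 1341 RPKM at 6 h under salt, and a change of 0.95 against 1.49 in control leaves (difference adjusted p = 0.156). A vacuolar amino acid transporter (comp7589_c0_seq2) had 4.50, 13.5 and 7.90 RPKM at 24 h, against 0.280, 0 and 0 RPKM at 6 h (log2 change 3.04, SE 0.27, adjusted p = 2.29e-07), and control leaves had 0, 0 and 0 RPKM at 24 h and 0, 0.420 and 0.270 RPKM at 6 h. Every replicate outside the salt-treated 24 h group was below 1 RPKM, and the difference was 3.32 (adjusted p = 0.000114). The transcript met the expression filter through that group alone, so its low level elsewhere is no further support. A ferredoxin-NADP reductase of the root type (comp13151_c0_seq1), which in non-green plastids moves electrons from NADPH to ferredoxin, had 53.7, 42 and 86.1 RPKM at 24 h, against 6.03, 6.04 and 7.55 RPKM at 6 h (log2 change 2.97, SE 0.27, adjusted p = 3.04e-07), a difference of 2.46 (adjusted p = 0.00052). A cinnamoyl reductase-like protein (comp18237_c0_seq1), named after an enzyme of lignin synthesis, had 4.90, 6.23 and 7.44 RPKM at 24 h, against 0.365, 0.360 and 0.570 RPKM at 6 h (log2 change 2.32, SE 0.19, adjusted p = 1.11e-07), a difference of 1.70 (adjusted p = 0.000567). Each of the 5 was higher in all 24 h replicates than in any 6 h replicate, which is true of every called rise. The cinnamoyl reductase-like transcript also met the expression filter through the salt-treated 24 h group alone.

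Candidate genes of the study were chosen on these same samples, so their direction is not independent evidence, and they stand under 7 transcript identifiers. Beside expansin-like B1, LTI65-like and the carboxylase kinase they include a SWEET11-like sugar transporter (comp26249_c0_seq5), of a family that lets sucrose leave cells, with 263, 332 and 229 RPKM at 24 h, against 17.9, 22.1 and 23.8 RPKM at 6 h (log2 change 3.62, SE 0.71, adjusted p = 0.00048). Control leaves rose by 2.33, and the difference did not pass the test (adjusted p = 0.341). The ATHB-7-like homeobox-leucine zipper factor (comp32085_c0_seq1), an abscisic acid-responsive regulator in Arabidopsis, had 219, 245 and 283 RPKM at 24 h, against 40.3, 29.5 and 42.5 RPKM at 6 h (log2 change 2.71, SE 0.69, adjusted p = 0.00346). The study lists the same identifier a second time for a ribonuclease H-like candidate, so which of the descriptions belongs to these values is uncertain. Its control level was 4.24 ± 3.30 RPKM at 24 h and 2.72 ± 2.03 RPKM at 6 h, and the difference did not pass (adjusted p = 0.0762). An undescribed transcript (comp32475_c0_seq1) had 109.6, 105.4 and 140.3 RPKM at 24 h, against 11.3, 8.0 and 11.1 RPKM at 6 h (log2 change 3.43, SE 0.56, adjusted p = 0.000105), a difference of 2.25 (adjusted p = 0.0421). Oleosin Bn-V-like (comp45963_c0_seq1), a coat protein of oil bodies, was the exception with 26.4, 24.4 and 31.5 RPKM at 24 h, against 31.2, 38.2 and 37.5 RPKM at 6 h, groups that overlap and a change of -0.37 (adjusted p = 0.272). It was already high at 6 h of salt, against 3.08 ± 1.71 RPKM at 24 h and 0.702 ± 0.345 RPKM at 6 h in control leaves (SD, n = 3 each).

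Some transcripts fell under salt with no decrease in control leaves, among them a wall protein and 2 proteins of the photosynthetic membrane. The cell wall protein exp1 precursor (comp25698_c1_seq3), an expansin, had 5.55, 9.77 and 5.44 RPKM at 24 h, against 214, 169 and 153 RPKM at 6 h (log2 change -4.53, SE 0.33, adjusted p = 3.56e-08). The control change was 0.20 and the difference -4.74 (adjusted p = 5.46e-05), the lowest among named transcripts. Both isoforms of its component summed fell by 2.84 on the log2 scale. A chlorophyll a-b binding protein (comp25306_c0_seq3), which harvests light, had 1176, 1205 and 1263 RPKM at 24 h, against 2752, 4402 and 3389.9 RPKM at 6 h (log2 change -1.51, SE 0.25, adjusted p = 0.000114), against a control change of 0.53 (difference adjusted p = 0.000999). A photosystem II reaction center family protein (comp12720_c0_seq2) had 9.62, 13.4 and 10.6 RPKM at 24 h, against 39.1, 45.4 and 40.3 RPKM at 6 h (log2 change -1.81, SE 0.25, adjusted p = 1.87e-05), against 0.07 in control leaves (difference adjusted p = 0.00155). Both were lower in every 24 h replicate. The list of light harvesting and photosystems as a whole had 2 higher and 2 lower of 7, against 28.3% higher and 32.1% lower of all tested transcripts. Its 2 risers were isoforms of the ferredoxin-NADP reductase component.

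Chlorophyll binding proteins were also among the most abundant transcripts of the deposited table, which holds only a part of the assembly. Of its 5 highest over the 6 salt replicates, 2 are isoforms of a component that the study describes as a petunia chlorophyll a/b binding protein. Isoform comp28131_c1_seq9 had 1561, 1317 and 1531 RPKM at 24 h, against 9175, 11891 and 21597 RPKM at 6 h (log2 change -3.18, SE 0.30, adjusted p = 4.55e-07; control change -0.22). Libraries of the same RNA disagreed here, with 4635, 4511 and 9084 RPKM at 6 h in libraries indexed with HPLC-purified primers and 13716, 19271 and 34110 RPKM in the others, and with the HPLC set alone the change was -2.04. Isoform comp28131_c1_seq5 had 3743, 3536 and 4660.3 RPKM at 24 h, against 7937, 10584 and 7766 RPKM at 6 h, a change of -1.13, or -0.67 with the HPLC set alone. Both isoforms were lower in all 24 h replicates, where 69.4% of all tested transcripts were free of overlap. A light-regulated protein (comp15866_c0_seq2) had 775, 873 and 912 RPKM at 24 h, against 10755, 11433 and 10581 RPKM at 6 h (log2 change -3.68, SE 0.31, adjusted p = 1.63e-07), deeper than the control change of -2.18, with a difference of -1.50 (adjusted p = 0.02). The other 2 have no description. Transcript comp28273_c0_seq1 changed by -1.01 and comp28238_c0_seq1 by 1.43, and the second of these rose less than in control leaves (2.48, difference adjusted p = 0.0214).

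Several regulators and an enzyme that makes a pectin precursor were lower at 24 h than at 6 h under salt, with changes below those in control leaves. Of the 5 described here, only the F-box transcript also had a lower control mean at 24 h. Control replicates were far apart for several of these transcripts. An F-box protein (comp7467_c0_seq1), a substrate adaptor for protein breakdown, had 0.200, 0.220 and 0.490 RPKM at 24 h, against 21, 17.9 and 21.9 RPKM at 6 h (log2 change -4.03, SE 0.45, adjusted p = 2.62e-06; control change -0.97), a difference of -3.06 (adjusted p = 0.003). A WRKY53-like factor (comp15947_c0_seq1), a regulator of senescence in Arabidopsis, had 0.380, 0.320 and 0.645 RPKM at 24 h, against 11.4, 6.43 and 5.58 RPKM at 6 h (log2 change -2.55, SE 0.49, adjusted p = 0.000431; control change 0.01), a difference of -2.56 (adjusted p = 0.0137). Both were below 1 RPKM at 24 h in all 3 replicates. The ZAT11-like zinc finger protein (comp21609_c0_seq1) had 1.95, 0.910 and 1.28 RPKM at 24 h, against 20.4, 12.98 and 40.9 RPKM at 6 h (log2 change -3.31, SE 1.05, adjusted p = 0.0133), and its change opposed the control change of 1.04 (difference adjusted p = 0.0368). Control leaves had 27.6, 67.97 and 0.355 RPKM at 24 h and 16.7, 1.44 and 6.05 RPKM at 6 h, and their hours overlapped. Without replicate 3 at 6 h its salt change was -2.88 and no longer passed (adjusted p = 0.0528). A CCR4-associated factor (comp17001_c0_seq1), of the complex that shortens poly(A) tails, had 8.12, 4.79 and 12.02 RPKM at 24 h, against 55.02, 73.9 and 70.3 RPKM at 6 h (log2 change -2.92, SE 0.88, adjusted p = 0.00974), against 0.98 in control leaves (difference adjusted p = 0.0275), which had 142, 136 and 4.63 RPKM at 24 h and 42.4, 11.6 and 25.4 RPKM at 6 h. A UDP-glucuronate epimerase (comp26376_c0_seq1), which makes the pectin precursor UDP-galacturonate, had 2.63, 2.69 and 4.42 RPKM at 24 h, against 10.1, 11.3 and 10.3 RPKM at 6 h (log2 change -1.47, SE 0.54, adjusted p = 0.0286), with a difference of -3.05 (adjusted p = 0.00916) from control leaves with 25.9, 32.8 and 4.69 RPKM at 24 h and 9.76, 4.25 and 2.43 RPKM at 6 h. Its salt change did not pass without replicate 1, 2 or 3 at 6 h or without replicate 1 or 2 at 24 h (-1.50 to -1.37, adjusted p 0.0557 to 0.0785). In each of these 5 the hours did not overlap under salt, as was true of 69.4% of all tested transcripts.

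Only 6 transcripts were called in opposite directions under salt and in control leaves, and 1 of them has a name. The HSP83-like transcript (comp26507_c0_seq2), of the HSP90 class of chaperones, had 57.3, 43.9 and 62.4 RPKM at 24 h, against 23.1, 17.6 and 18.3 RPKM at 6 h (log2 change 1.42, SE 0.27, adjusted p = 0.000384). Control leaves had 17.4, 10.98 and 19.2 RPKM at 24 h and 43.99, 77.3 and 70 RPKM at 6 h (change -1.94), and the difference was 3.36 (adjusted p = 0.000114). Salt-treated leaves were thus higher at 24 h and control leaves higher at 6 h, with no overlap in either pair. The unnamed ones, listed after their values were seen, were comp27435_c0_seq1 (1.85 under salt, -1.63 in control leaves) and comp27435_c0_seq3 (1.21 and -1.41), which rose under salt, and comp25516_c0_seq4 (-1.43 and 1.38), comp25516_c0_seq5 (-1.48 and 1.31) and comp34711_c0_seq1 (-1.94 and 1.41), which fell. A SET-like transcript (comp21515_c0_seq2), named after a histone chaperone, had 7.46, 5.99 and 12.9 RPKM at 24 h, against 3.73, 3.56 and 3.12 RPKM at 6 h, a salt change of 1.07 against -2.45 in control leaves (difference adjusted p = 0.000149). Without replicate 3 at 24 h its salt change was 0.79 and did not pass (adjusted p = 0.0538), nor did both isoforms summed (0.58, adjusted p = 0.136).

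Few DNA replication transcripts passed the test between the 2 hours under salt, although nearly all fell in control leaves. The list has 20 transcripts in 13 components, 1 of which is a reverse transcriptase and not a replication protein. Under salt 1 was higher, 4 were lower and 15 did not pass the test (median change -0.37), while in control leaves 0 were higher and 19 lower (median -1.83). The higher one was the reverse transcriptase. Without it 0 of 19 were higher and 4 lower under salt, and 18 were lower in control leaves. The difference passed in 18, with 17 positive and 1 negative, or 16 and 1 without the reverse transcriptase. Summed over the 19 members without the reverse transcriptase, levels were 13.3, 14.9 and 13.4 RPKM at 24 h, against 22.2, 25.8 and 24.1 RPKM at 6 h under salt. Control leaves summed to 29.1, 14.95 and 21.8 RPKM at 24 h and to 107, 137 and 94.1 RPKM at 6 h. The salt-treated leaves at 6 h were thus already within the range of control leaves at 24 h, and their own hours did not overlap. Most members were near or under 1 RPKM under salt, where the pseudocount leaves little room for a decrease. Origin recognition complex subunit 1-like (comp9162_c0_seq1), which marks where replication starts, had 0.950, 0.250 and 0.425 RPKM at 24 h, against 1.84, 1.67 and 2.45 RPKM at 6 h (log2 change -0.97, SE 0.27, adjusted p = 0.00573). DNA polymerase delta subunit 4-like (comp10944_c0_seq1), of the polymerase that copies the lagging strand, had 2.3, 3.46 and 3.23 RPKM at 24 h, against 5.43, 8.92 and 9.12 RPKM at 6 h (log2 change -1.13, SE 0.31, adjusted p = 0.00614) and was the member with a negative difference (-1.31, adjusted p = 0.0354). The origin recognition transcript did not pass with the HPLC-indexed libraries alone (-0.62, adjusted p = 0.166).

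**Figure D3:**
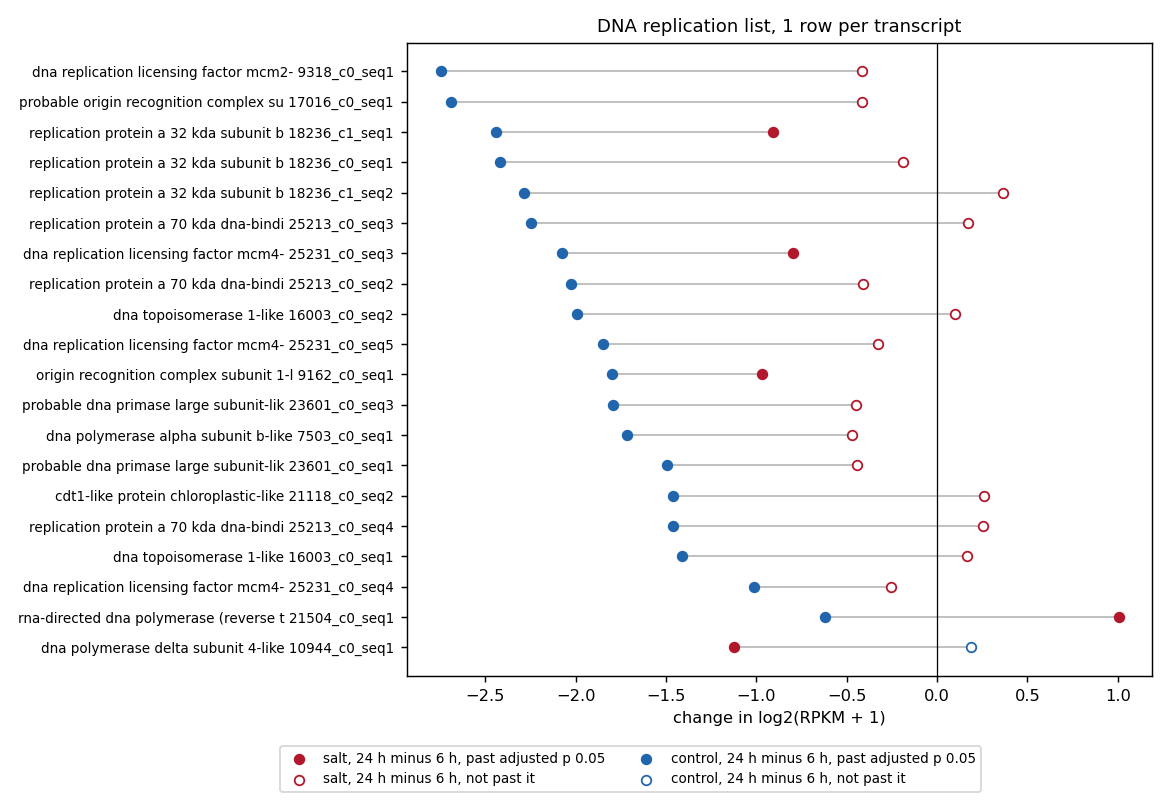
Change from 6 to 24 h in log2(RPKM + 1) of the 20 transcripts of the DNA replication list, with salt-treated leaves in red and control leaves in blue, filled where the adjusted p was at most 0.05. The control changes lie left of the salt changes in every row but that of the polymerase delta subunit, and 19 of the blue but 5 of the red points are filled.

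Lists of histones, dividing cells and ribosomes followed. Of 7 histone and chromatin transcripts 3 were lower under salt and 6 in control leaves, and the difference passed in 4, all positive. The share lower under salt was thus not below that of all transcripts. At a common median, without replicate 2 at 6 h or without replicate 3 at 24 h only 1 was lower under salt. Of 16 transcripts of dividing cells 2 were higher and 3 lower under salt, against 2 higher and 12 lower in control leaves. The difference passed in 3 positive and 1 negative members, fewer in share than the 32.3% of all transcripts, and in 2 with the HPLC-indexed libraries alone. Their summed level was 68.6 to 76.7 RPKM at 24 h, against 117 to 144 RPKM at 6 h under salt, and 93.9 to 125 RPKM at 24 h, against 229 to 259 RPKM at 6 h in control leaves. A beta tubulin (comp26516_c0_seq6), a building block of microtubules, had 44.3, 46.6 and 39.02 RPKM at 24 h, against 81.9, 104 and 107 RPKM at 6 h (log2 change -1.14, SE 0.20, adjusted p = 0.000163; control change -1.02). Of 20 transcripts of ribosome and translation 5 were higher and 2 lower under salt, against 2 higher and 11 lower in control leaves. The difference passed in 7 positive and 2 negative members. In a fit of the compared groups alone 5 were higher and 5 lower under salt. Without replicate 3 at 6 h it was 3 and 0, and without replicate 3 at 24 h 3 and 1. The ribosomal protein L18a-like (comp17021_c0_seq1) had 55.6, 45.1 and 47.9 RPKM at 24 h, against 24.5, 25.4 and 22.2 RPKM at 6 h (log2 change 1.01, SE 0.29, adjusted p = 0.00689), against a control change of -1.28 (difference adjusted p = 0.00113). Its hours did not overlap under salt, as was true of 69.4% of all tested transcripts.

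Other lists leaned lower at 24 h under salt, where 28.3% of all tested transcripts were higher and 32.1% lower. Of 13 WRKY and NAC factors, regulators of stress and senescence, 3 were higher and 7 lower (median -1.45), against 5 higher and 1 lower in control leaves. The difference passed in 3, fewer in share than in all transcripts (32.3%), and with the HPLC-indexed libraries alone it passed in 1, with 2 higher and 0 lower in control leaves. With a pseudocount of 0.1 or without replicate 3 at 24 h the count was 1 higher and 7 lower. Of 57 ubiquitin and proteasome transcripts 9 were higher and 24 lower, with almost the same counts in control leaves (9 and 23). The RING-H2 finger protein ATL21A-like (comp10723_c0_seq1), a type of ubiquitin ligase, had 0.825, 0.560 and 0.835 RPKM at 24 h, against 16.02, 15.7 and 15.2 RPKM at 6 h (log2 change -3.26, SE 0.24, adjusted p = 3.22e-08; control change -2.66), with hours far apart. Of 77 receptor kinase and calcium signalling transcripts 17 were higher and 34 lower, against 12 and 31 in control leaves, and with the HPLC-indexed libraries alone 11 and 22 of 73 under salt. Of 12 sugar and polyol transporters 3 were higher and 7 lower, against 2 and 8 in control leaves, among them a SWEET2a-like transporter (comp22595_c0_seq1) with 9.48, 9.63 and 11.5 RPKM at 24 h, against 72.1, 95.8 and 63.9 RPKM at 6 h (log2 change -2.79, SE 0.36, adjusted p = 1.18e-05). Of 6 aquaporins, the water channels of plant membranes, 1 was higher and 3 lower under salt, against 4 higher and 1 lower in control leaves, and the difference passed in 4, all negative. Aquaporin TIP4-1-like (comp10877_c0_seq1), of a subfamily found in the vacuolar membrane, had 8.27, 11.9 and 12.4 RPKM at 24 h, against 19.7, 28.7 and 23.8 RPKM at 6 h (log2 change -1.08, SE 0.23, adjusted p = 0.000788), against a control change of 0.83 (difference adjusted p = 0.000771). Each of these 3 transcripts was lower in all 24 h replicates.

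Other lists leaned higher at 24 h under salt, where 28.3% of all tested transcripts were higher and 32.1% lower. Of 12 ethylene transcripts 8 were higher and 3 lower (median 1.56), against 6 higher and 0 lower in control leaves. An ACC oxidase (comp16626_c1_seq1), which makes ethylene, had 223, 309 and 289 RPKM at 24 h, against 97.2, 39.9 and 42.3 RPKM at 6 h (log2 change 2.28, SE 0.39, adjusted p = 0.00014; control change 1.52). Of 14 nitrogen, amino acid and peptide transporters 7 were higher and 1 lower, against 4 and 1 in control leaves. Of 17 phenylpropanoid and flavonoid transcripts 9 were higher and 2 lower, against 9 and 0 in control leaves, and a caffeoyl methyltransferase (comp22610_c0_seq1), of the lignin pathway, had 20.8, 21.7 and 26.4 RPKM at 24 h, against 4.93, 8.04 and 7.67 RPKM at 6 h (log2 change 1.62, SE 0.21, adjusted p = 1.23e-05; control change 1.71). Of 54 cuticle and lipid transcripts 24 were higher and 13 lower, against 21 and 7. A guard cell anion channel of the SLAC1 type (comp8420_c0_seq1), which drives stomatal closure in Arabidopsis, had 14.1, 12.8 and 11.2 RPKM at 24 h, against 4.61, 4.09 and 3.88 RPKM at 6 h (log2 change 1.40, SE 0.22, adjusted p = 8.52e-05; control change 1.49). Hours did not overlap in any of the 3. The list of abscisic acid and dehydration response did not lean higher, with 5 of 27 higher and 7 lower at 24 h, against 10 and 6 in control leaves. It does not hold LTI65-like (5.12) or the ATHB-7-like factor, which both rose under salt as described above. The highest salt change among its members was 1.41, so the counts do not cover these 2 risers. The difference passed in 6, fewer in share than the 32.3% of all transcripts, and in 3 with the HPLC-indexed libraries alone. Most of its 10 components are protein phosphatases 2C, a family whose best-known members restrain abscisic acid signalling, and with a pseudocount of 0.1 the list had 3 higher and 9 lower.

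**Figure D4:**
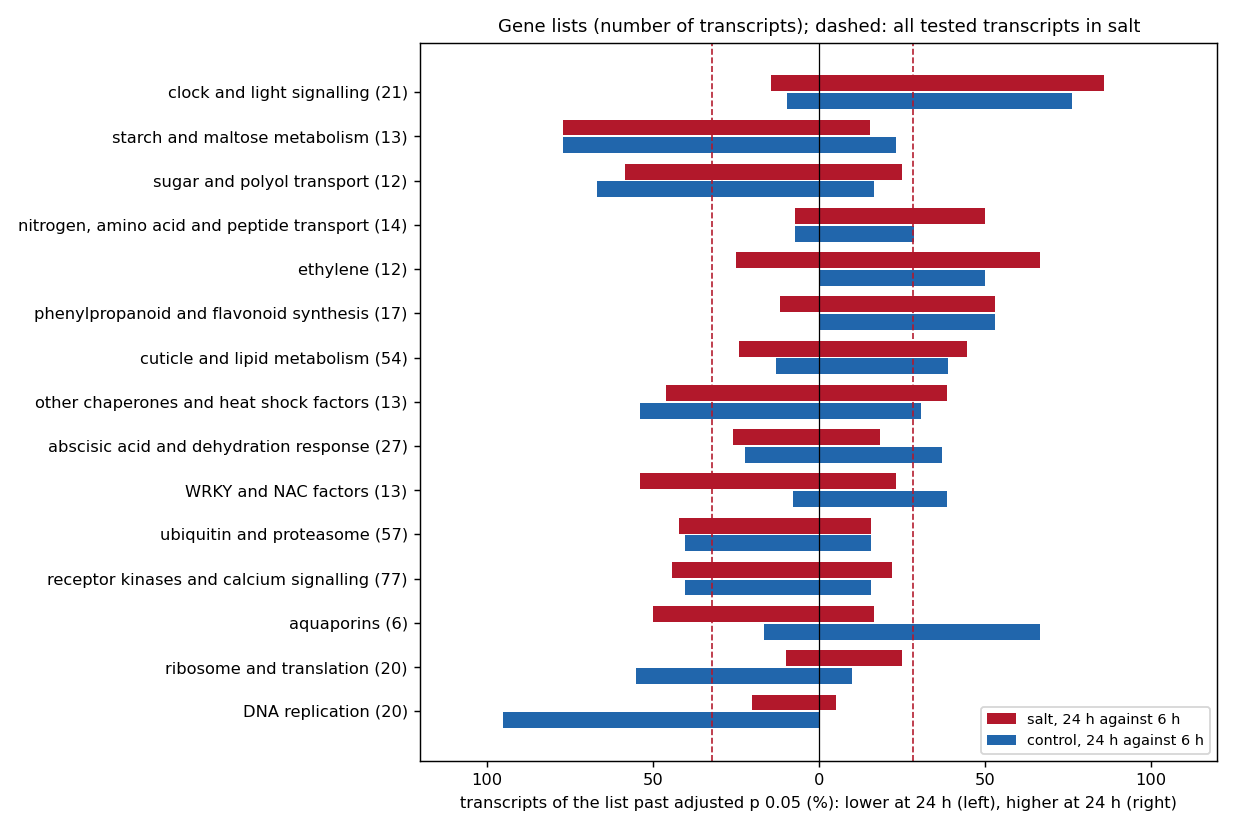
Share of each list's transcripts, in percent, that were lower (left) or higher (right) at 24 h at an adjusted p of at most 0.05, with salt-treated leaves in red and control leaves in blue, and dashed lines at 32.1% and 28.3% for all tested transcripts under salt. Starch metabolism extends left and clock and light signalling extends right under both treatments, while DNA replication extends left in control leaves (19 of 20) and little under salt (4 of 20).

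The highest and one of the lowest changes in the comparison belong to isoforms of a single component, described as the arachidonic acid-induced DEA1 precursor and as a proline-rich protein. Isoform comp15904_c0_seq1 had 321, 543 and 126 RPKM at 24 h, against 0.495, 1.01 and 1.28 RPKM at 6 h (log2 change 7.21, SE 1.17, adjusted p = 9.51e-05). Isoform comp15904_c0_seq2 had 2.29, 4.30 and 10.1 RPKM at 24 h, against 203, 428 and 359 RPKM at 6 h (log2 change -5.77, SE 0.41, adjusted p = 2.58e-08), and isoform comp15904_c0_seq3 had 114, 128 and 42.5 RPKM at 24 h, against 0, 0.715 and 0.570 RPKM at 6 h (log2 change 5.96, SE 0.96, adjusted p = 9.17e-05). The second isoform made up nearly all of the component at 6 h and the other two did so at 24 h, in all 3 replicates. Summed over the 3 isoforms the component had 438, 676 and 179 RPKM at 24 h, against 203, 430 and 361 RPKM at 6 h, which overlap, and the summed change was 0.25 (SE 0.44, adjusted p = 0.637). In control leaves the sum was 141, 66.6 and 169 RPKM at 24 h and 3000.2, 2276 and 1686 RPKM at 6 h, a change of -4.26. The difference of the summed changes was 4.51 (adjusted p = 0.000246). Nearly all of the control sum at 6 h was the second isoform, as was most of it in replicates 1 and 2 at 24 h. In control replicate 3 at 24 h that isoform had 77.8 RPKM, beside 69.1 RPKM of the first and 21.8 RPKM of the third. Isoforms of a component share reads, which the estimation divides among them, so the split between isoforms is less certain than their sum. This was the 1 component with called isoforms in both directions.

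**Figure D5:**
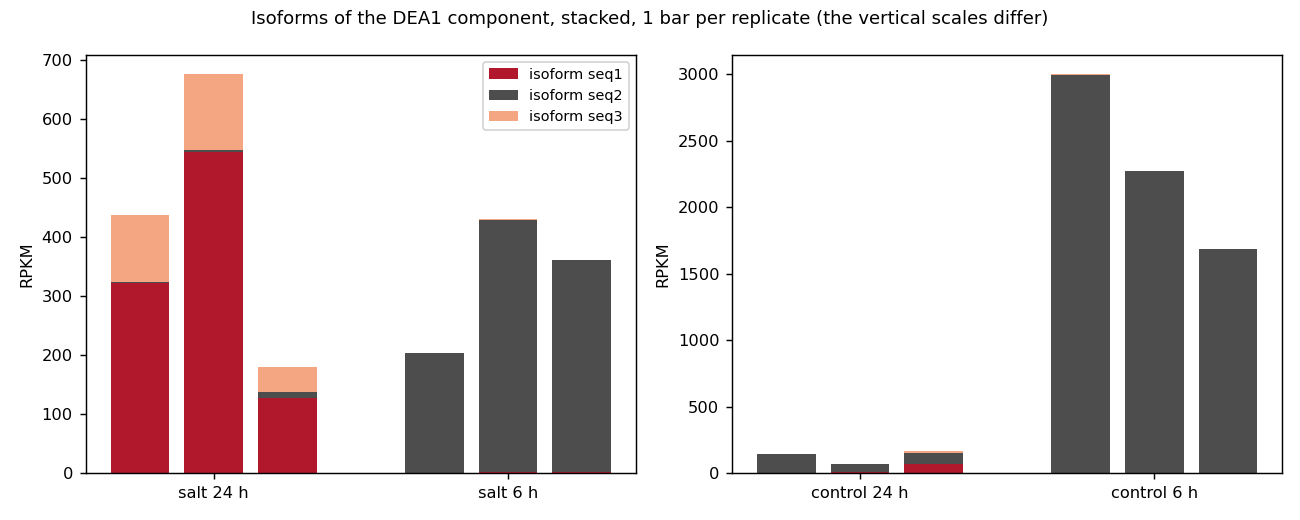
RPKM of the 3 isoforms of the DEA1 component, stacked, with a bar for each biological replicate, salt-treated leaves on the left and control leaves on the right on a scale of their own. Under salt the sums of 179 to 676 at 24 h and of 203 to 430 at 6 h overlap while the isoform that makes up the bar changes.

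Transcripts without a description were as far apart. The strongest rise among them outside the DEA1 component was comp33705_c0_seq1 with 168, 169 and 169.6 RPKM at 24 h, against 1.98, 0.470 and 1.75 RPKM at 6 h (log2 change 6.21, SE 0.50, adjusted p = 8.98e-08), a difference of 3.50 (adjusted p = 0.00256). Transcript comp25524_c0_seq3 had 10.6, 13.7 and 15.9 RPKM at 24 h, against 763, 710.3 and 642 RPKM at 6 h (log2 change -5.63, SE 0.20, adjusted p = 1.79e-11; control change -5.16). Transcript comp16027_c0_seq4 had 0.700, 0 and 1.24 RPKM at 24 h, against 43.95, 70.9 and 56.2 RPKM at 6 h (log2 change -5.19, SE 0.39, adjusted p = 4.56e-08), a difference of -1.55 (adjusted p = 0.043). The first was high and the last 2 were low in every 24 h replicate.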

How the data were processed

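Leaf RNA of Petunia x hybrida 'Mitchell Diploid' was sequenced at 24 and 6 h of 150 mM NaCl and in control plants at 24, 6 and 0 h. The deposited values are RPKM per transcript of a de novo assembly, made by the authors with RSEM, and the table holds 4767 transcripts, selected in a way not given in the sources used here. No counts were used, so depth is unknown.

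Of 29 value columns 28 were used. For salt at 24 h the labels list 5 libraries and the table has 6 columns, so 1 column, the non-HPLC library of replicate 2, was left out, and that replicate rests on its HPLC library alone. For control at 6 h the labels list 6 libraries and the table has 5 columns. Replicate 2 of that group also rests on its HPLC library alone. The 3 samples labelled salt 0 h were not analysed here. Most replicates had 2 libraries of 1 RNA, indexed with HPLC-purified or other primers, which were averaged. The mean was taken to log2(RPKM + 1), and transcripts with at least 1 RPKM in at least 3 replicates were kept (4658). A linear model over all 5 groups was fitted with limma 3.58.1 (R 4.3.3) with moderated variances, with Benjamini-Hochberg adjustment over all 4658 transcripts. Calls of salt or control changes took an adjusted p of at most 0.001 and a log2 change of at least 1. List members and the difference between both changes took an adjusted p of at most 0.05. Tables and figures were made with Python 3.11.15, pandas 2.3.3, numpy 2.4.6 and matplotlib 3.10.9. The fit was tested on simulated data. P-values treat replicates as independent, although both hours may share plants.

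The transcripts described were those with the largest changes (up to 15 each way), up to 3 per gene list, the study's candidates, the 5 highest and lowest differences, the largest calls shared with or opposed to control, and the 5 most abundant, of which a part is described. Those with the largest changes were taken only among called transcripts whose hours did not overlap under salt. Names come from the table (1434 transcripts) or the study (108). Gene lists were matched to names from the table alone, and of 42 lists 2 had no member. The comparison, the lists and the members were chosen with earlier results of these data known. Alternatives were a pseudocount of 0.1, no filter, scaling to the same median, HPLC libraries alone, compared groups alone, a replicate block, other thresholds, leaving out each replicate and, chosen after seeing the data, isoforms summed per component.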

Additional observations from a re-analysis of the deposited data

Results flagged for a closer look

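Each transcript below is one whose change from 6 to 24 h in salt-treated leaves differed from the change in control leaves in the limma fit, with an adjusted p of at most 0.05 for the difference, which is given as salt minus control in log2(RPKM + 1).

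Wall and stress proteins had positive differences of 5.74 for expansin-like B1 (comp40589_c0_seq1), 4.08 for LTI65-like (comp31034_c0_seq1), 3.26 for the pollen allergen (comp15527_c0_seq1) and 5.47 for the third isoform of the DEA1 component (comp15904_c0_seq3), whose split from its other isoforms is uncertain. Chaperones and a histone chaperone had 3.50 for HSC70 (comp16641_c0_seq2), 3.36 for HSP83-like (comp26507_c0_seq2), 2.37 for HSP70 (comp20827_c0_seq1) and 3.52 for SET-like (comp21515_c0_seq2). Enzymes and transporters gave 3.32 for the vacuolar amino acid transporter (comp7589_c0_seq2), 2.52 for phosphoenolpyruvate carboxylase kinase (comp14467_c0_seq2), 2.46 for ferredoxin-NADP reductase (comp13151_c0_seq1), 1.70 for the cinnamoyl reductase (comp18237_c0_seq1) and 1.27 for glucan water dikinase (comp15987_c0_seq1). Differences of 2.29 for ribosomal protein L18a (comp17021_c0_seq1), 1.33 for APRR5-like (comp15361_c0_seq2), 3.50 for comp33705_c0_seq1 and 2.25 for comp32475_c0_seq1 were also positive.

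Among the negative differences, the exp1 precursor (comp25698_c1_seq3) had -4.74, ZAT11-like (comp21609_c0_seq1) -4.35, the CCR4-associated factor (comp17001_c0_seq1) -3.90, the F-box protein (comp7467_c0_seq1) -3.06, the UDP-glucuronate epimerase (comp26376_c0_seq1) -3.05 and WRKY53-like (comp15947_c0_seq1) -2.56. Proteins of the photosynthetic membrane and light response gave -2.96 for comp28131_c1_seq9, -1.72 for comp28131_c1_seq5, -2.03 for the chlorophyll a-b binding protein (comp25306_c0_seq3), -1.88 for the photosystem II protein (comp12720_c0_seq2), -1.50 for the light-regulated protein (comp15866_c0_seq2) and -1.05 for the B-box protein (comp14982_c0_seq2). The rest were -2.55 for a GDSL esterase (comp11731_c0_seq1), -1.91 for TIP4-1-like (comp10877_c0_seq1), -1.57 for oleosin (comp45963_c0_seq1), -1.55 for comp16027_c0_seq4, -1.37 for comp13205_c1_seq1 and -0.89 for comp13205_c0_seq1 (inositol-3-phosphate synthase), -1.31 for DNA polymerase delta subunit 4-like (comp10944_c0_seq1), -1.06 for comp28238_c0_seq1 and -0.70 for ATP synthase protein I (comp22135_c0_seq2, adjusted p = 0.0499). With all replicates at the same median, the median difference over all transcripts shifts by -0.15.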

How the results depend on the processing

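The direction of the salt change held in every alternative for 137 of the 139 transcripts described or considered. The exceptions were the proline-rich isoform comp15904_c0_seq2, whose component gave 0.25 with isoforms summed, and an HMG B7-like transcript (comp24040_c0_seq2) at 0.21 with HPLC libraries alone. Of the 139, 120 also kept their side of the threshold throughout. The cause of the other 19 was not tested.

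Without a fold limit at an adjusted p of 0.05, 2811 transcripts passed under salt (1317 higher, 1494 lower) and 2868 in control leaves (1274 and 1594). In a fit of the compared groups alone, control leaves gave 749 calls (311 and 438) and salt-treated leaves 1382. The difference between both changes passed in 969 transcripts (520 positive, 449 negative) with HPLC libraries alone and in 165 (72 and 93) at an adjusted p of 0.001 and a log2 change of at least 1. Leaving out 1 replicate gave 1025 to 1434 salt calls (425 to 632 higher, 596 to 803 lower), 1170 to 1490 control calls (445 to 586 and 725 to 911) and 1069 to 1674 differences (553 to 907 and 516 to 767).

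With the replicate number as a replicate block, 602 transcripts were higher and 735 lower under salt, 578 and 888 in control leaves, and 766 differences were positive and 676 negative. Deviations of same-numbered replicates correlated at 0.05, 0.08 and -0.07 under salt and at 0.17, -0.20 and 0.19 in control leaves, so the numbers were not taken as pairs. Isoforms summed per component gave 449 higher and 538 lower components under salt. Precision is limited by 3 replicates per group, by an unknown depth and by isoforms that share reads.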
